A study of Homo sapiens with 10 samples.

Results

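The 9 genes described here encode plasminogen activators, matrix proteases and their inhibitors: PLAU, PLAUR, PLAT, SERPINE2, MMP1, MMP2, MMP13, TIMP1 and TIMP2. They are 9 of the 19775 genes that the arrays measured with a probe set annotated to 1 symbol, and 17 of the 41091 such probe sets belong to them. Each gene was read from its probe set of highest mean level, and the other probe sets were kept beside it. RNA was measured on 1 Affymetrix array per sample in 10 samples of LNCaP and DU145, human prostate cancer lines derived from a lymph node and from a brain metastasis. In each line there was 1 array of EOS cells treated with ribavirin, 2 arrays of EOS cells and 2 arrays of PGK control cells. EOS cells carried a vector in which OCT4 and SOX2 enhancers drive GFP and puromycin resistance, and they had been kept in puromycin to enrich cells with higher OCT4. The controls carried GFP and puromycin resistance under the ubiquitous PGK promoter, so every group was transduced. Ribavirin is a guanosine analogue, and the labels tie the treated cells to EOS number 2 and give no dose or time.

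Urokinase (PLAU) and tissue-type plasminogen activator (PLAT) cut plasminogen into plasmin, a broad protease that degrades fibrin and matrix proteins and activates some metalloproteinase precursors. The urokinase receptor PLAUR holds urokinase at the cell surface, and protease nexin-1 (SERPINE2) inhibits both activators, plasmin and thrombin. MMP1 and MMP13 are collagenases that cut fibrillar collagen, and MMP2 is a gelatinase that cuts denatured and basement membrane collagen. TIMP1 and TIMP2 are secreted inhibitors of the metalloproteinases, and TIMP2 also takes part in the activation of the MMP2 precursor at the cell surface. In prostate cancer the urokinase system is known for its link with invasion and bone metastasis.

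The promoters of PLAUR, TIMP1 and PLAU are shown because these genes had large differences between the lines, and AP-1 factors are known to bind promoters of this family. RefSeq windows on GRCh38.p14 were matched for 4 of the 9 members, in 6 windows, and the 250 bases before each start were searched. The AP-1 motif TGAGTCA and its reverse complement TGACTCA were in 4.2% of 35116 such windows, and TGAGTAA with its reverse complement TTACTCA in 2.21%. The second motif was added after the TIMP1 sequence had been read. Capitals mark the matches, which lie 186 to 180 bases before the PLAUR start and 101 to 95 bases before the TIMP1 start. Neither motif was found in the window shown for PLAU, in the other PLAU window or in the SERPINE2 windows. The windows are chr19:43670170-43670419 on the minus strand for PLAUR, chrX:47582186-47582435 on the plus strand for TIMP1 and chr10:73910882-73911131 on the plus strand for PLAU.
PLAUR: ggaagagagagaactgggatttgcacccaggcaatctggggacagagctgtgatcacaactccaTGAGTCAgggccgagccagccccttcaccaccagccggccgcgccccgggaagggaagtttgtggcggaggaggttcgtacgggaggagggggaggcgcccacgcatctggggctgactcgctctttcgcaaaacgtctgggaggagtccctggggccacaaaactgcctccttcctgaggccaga
TIMP1: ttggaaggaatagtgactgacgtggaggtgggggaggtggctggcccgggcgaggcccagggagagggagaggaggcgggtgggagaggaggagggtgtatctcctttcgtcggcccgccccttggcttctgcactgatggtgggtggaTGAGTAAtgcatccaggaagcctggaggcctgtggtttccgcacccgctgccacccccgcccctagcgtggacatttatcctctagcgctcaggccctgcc
PLAU: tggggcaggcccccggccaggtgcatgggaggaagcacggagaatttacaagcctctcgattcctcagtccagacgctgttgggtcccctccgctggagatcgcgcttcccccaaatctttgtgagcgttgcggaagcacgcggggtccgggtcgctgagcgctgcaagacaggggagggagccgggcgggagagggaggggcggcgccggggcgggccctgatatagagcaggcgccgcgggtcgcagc

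All levels below are log2(intensity + 16) after each array was scaled to a trimmed mean of 500, so an intensity of 0 stands at 4 and folds of dim genes are understated. The medians of the arrays lay between 6.12 and 6.45. As deposited, the 4 arrays numbered 1 had trimmed means of 500 and the 6 numbered 2 had 96.56 to 126.5. ACTB signal at the 3' over the 5' end, which grows as the amplified RNA gets shorter, was 1.236 to 1.511 in arrays numbered 1 and 3.204 to 3.993 in arrays numbered 2. Every PGK and EOS group holds 1 array of each number, whereas both ribavirin arrays carry number 2. The summed intensity of the luminal prostate markers on the array was 52620 to 82650 in LNCaP and 376.3 to 613.9 in DU145, so the line labels and the RNA went together. Separate cultures for arrays 1 and 2 are not stated in the labels, so p-values reflect array-to-array spread that may be purely technical. Less RNA per cell and fewer expressing cells cannot be told apart in such bulk samples.

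Urokinase, its receptor and TIMP1 stood far lower in LNCaP than in DU145, and TIMP2, PLAT and SERPINE2 were also lower among the PGK controls. DU145 PGK cells had 99.9-fold more TIMP1, 70.6-fold more PLAU and 12.6-fold more PLAUR signal on the pseudocount scale. The differences in TIMP2, PLAT and SERPINE2 were 5.15-fold, 3.35-fold and 2.21-fold in the same direction. MMP2 was not called, and MMP1 and MMP13 were too dim to be tested. The comparison sets the lines side by side in cells that carry the control vector in place of the EOS reporter.

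**Figure D1:**
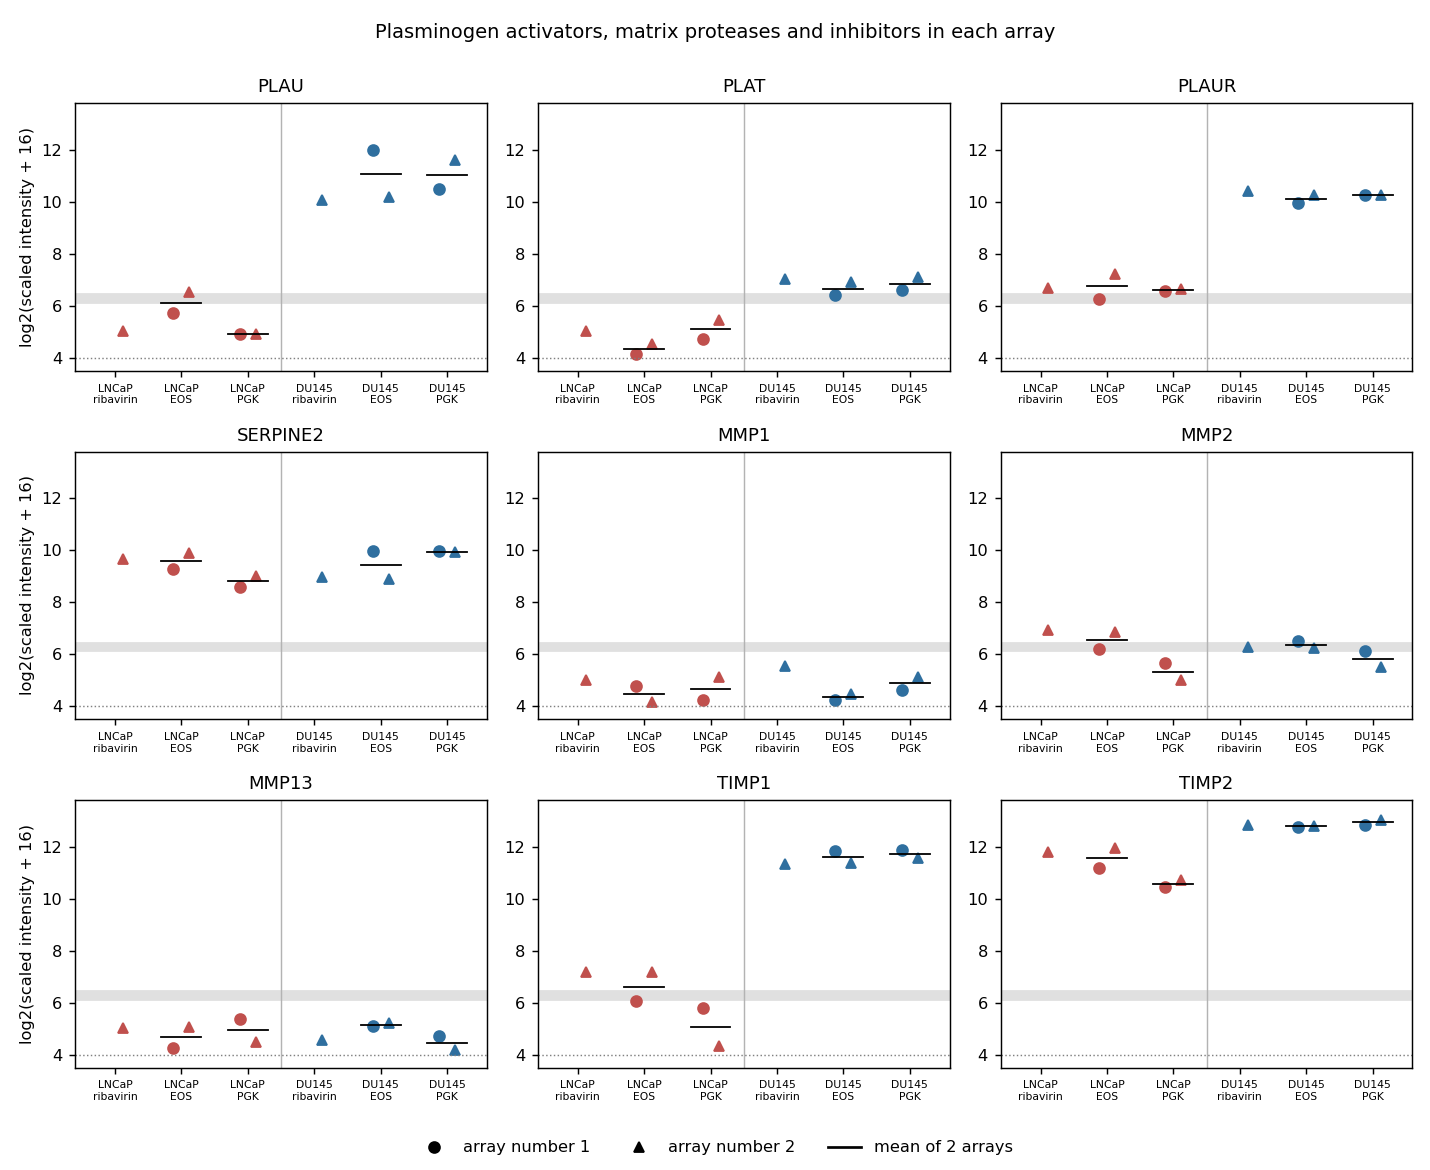
Level of each gene, as log2(scaled intensity + 16) on the vertical axes, in the 6 groups of 10 arrays; each point is 1 array, its marker gives the array number, lines are means of 2 arrays, the grey band spans the array medians and the dotted line is the floor of 4. PLAU, PLAUR, PLAT, TIMP1 and TIMP2 have all 5 LNCaP arrays below all 5 DU145 arrays, while SERPINE2 and MMP2 overlap between the lines and MMP1 and MMP13 stay below the array medians.

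PLAU was at 5.03 in ribavirin-treated, 5.74 and 6.52 in EOS and 4.91 and 4.92 in PGK LNCaP cells, against 10.06 in ribavirin-treated, 11.98 and 10.19 in EOS and 10.51 and 11.60 in PGK DU145 cells. All LNCaP arrays were low and all DU145 arrays high, with no overlap, and only EOS number 2 of LNCaP exceeded its array median. Among PGK controls the log2 difference was -6.14 ± 0.59 (standard error from the fit over all arrays, 2 arrays against 2; limma, adjusted p = 0.000138). A second PLAU probe set gave -3.70 for the same difference.

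The receptor PLAUR was at 6.68 in ribavirin-treated, 6.26 and 7.25 in EOS and 6.58 and 6.64 in PGK LNCaP cells, against 10.43 in ribavirin-treated, 9.96 and 10.25 in EOS and 10.27 and 10.27 in PGK DU145 cells. Its 5 DU145 values lay within 0.47 of each other on the log2 scale, and its 5 LNCaP values within 0.99. The log2 difference among PGK controls was -3.66 ± 0.34 (limma, adjusted p = 0.00011). Other PLAUR probe sets gave -4.31 and -2.89.

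PLAT, the activator best known from blood vessels and neurons, was below the median of every LNCaP array, at 5.03 in ribavirin-treated, 4.14 and 4.56 in EOS and 4.74 and 5.48 in PGK cells. DU145 had 7.04 in ribavirin-treated, 6.41 and 6.92 in EOS and 6.61 and 7.10 in PGK cells, each above its array median. The log2 difference among PGK controls was -1.75 ± 0.50 (limma, adjusted p = 0.0276). That call was lost without DU145 PGK array 1 or 2 or LNCaP PGK array 1, with adjusted p of 0.0772, 0.17 and 0.122, and with a pseudocount of 1, at 0.073.

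SERPINE2, the inhibitor among these genes that acts on the activators, was above the median on all 10 arrays. Its values were 9.67 in ribavirin-treated, 9.29 and 9.89 in EOS and 8.60 and 9.02 in PGK LNCaP cells, against 8.97 in ribavirin-treated, 9.98 and 8.90 in EOS and 9.99 and 9.92 in PGK DU145 cells. Of the groups with 2 arrays, only the PGK ones were separate between the lines, with a log2 difference of -1.15 ± 0.38 (limma, adjusted p = 0.0459). Leaving out any 1 of the 4 PGK arrays moved the adjusted p to between 0.0674 and 0.176, and the fit with the array number as a block gave -1.69 with adjusted p = 0.00453. A second SERPINE2 probe set was below the median on all arrays.

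TIMP1 had the largest line difference of the members among the PGK controls. It was at 7.18 in ribavirin-treated, 6.07 and 7.17 in EOS and 5.80 and 4.36 in PGK LNCaP cells, against 11.35 in ribavirin-treated, 11.83 and 11.37 in EOS and 11.87 and 11.57 in PGK DU145 cells. LNCaP arrays spread over 2.83 log2 units and DU145 arrays over 0.52. Among PGK controls the log2 difference was -6.64 ± 0.51 (limma, adjusted p = 4.02e-05). With pseudocounts of 1 and 64 in place of 16 it was -7.81 and -5.34, and that of PLAU was -7.12 and -4.80, with the direction and the call kept. Without LNCaP PGK array 1 the TIMP1 difference was -7.36, and without LNCaP PGK array 2 it was -5.92. The PLAU difference was -6.69 without DU145 PGK array 1 and -5.60 without DU145 PGK array 2.

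TIMP2 was above the median on all 10 arrays, at 11.79 in ribavirin-treated, 11.17 and 11.96 in EOS and 10.44 and 10.71 in PGK LNCaP cells, against 12.84 in ribavirin-treated, 12.75 and 12.81 in EOS and 12.85 and 13.03 in PGK DU145 cells. DU145 values stayed within 0.28 log2 units of each other, whereas LNCaP values covered 1.52. The log2 difference among PGK controls was -2.36 ± 0.26 (limma, adjusted p = 0.000252). A second probe set gave -2.44, and the remaining one gave -0.82 in PGK cells, 0.17 in EOS cells and 1.16 in ribavirin-treated cells. The line difference in TIMP2 was thus not the same for all its probe sets.

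**Figure D2:**
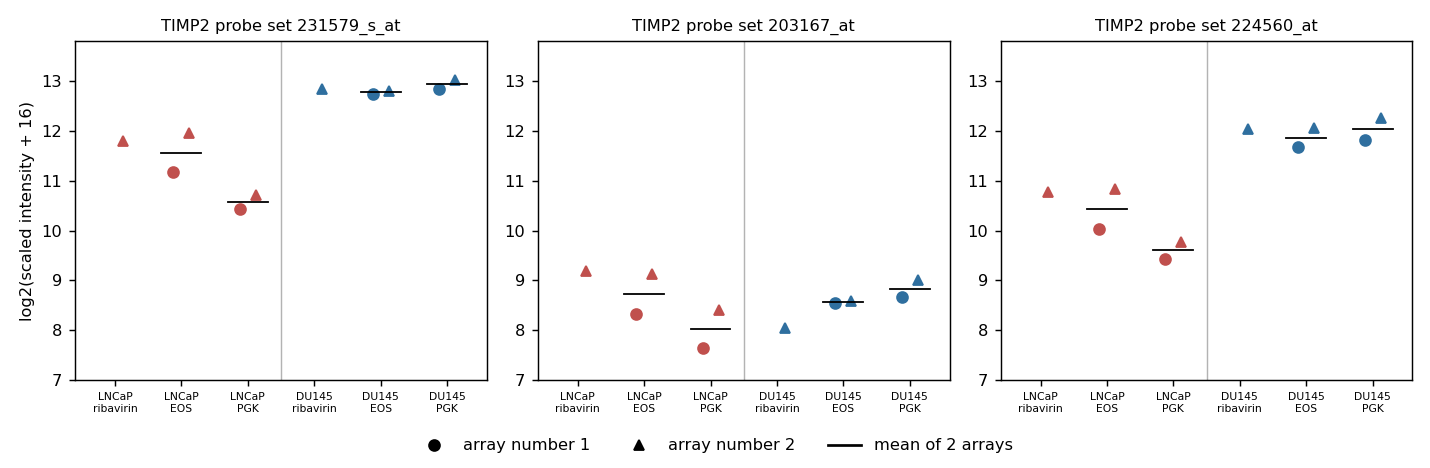
Levels of the 3 TIMP2 probe sets as log2(scaled intensity + 16) on the vertical axis, by group along the horizontal axes, with 1 point per array and a line at the mean of 2 arrays. The chosen set and one other place all LNCaP arrays below DU145, while the set in the middle panel overlaps between the lines, and all of them are higher in the LNCaP EOS arrays than in the LNCaP PGK array of the same number.

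Of the metalloproteinases, MMP2 was at 6.95 in ribavirin-treated, 6.21 and 6.87 in EOS and 5.65 and 5.01 in PGK LNCaP cells, against 6.28 in ribavirin-treated, 6.50 and 6.25 in EOS and 6.13 and 5.51 in PGK DU145 cells. The lines overlapped, and the difference among PGK controls was -0.49 ± 0.47 (limma, adjusted p = 0.47). MMP1 ranged from 4.17 to 5.13 in LNCaP and from 4.25 to 5.57 in DU145. MMP13 ranged from 4.27 to 5.39 in LNCaP and from 4.17 to 5.21 in DU145. Both collagenases were below the median of every array, in scaled intensity at most 31.53 for MMP1 and 25.99 for MMP13. Without the filter on dim probe sets their line differences were -0.20 ± 0.42 and 0.50 ± 0.45, with adjusted p of 0.812 and 0.512 in limma.

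Among PGK controls 6 members were called lower at an adjusted p under 0.05, and 17.9% of the 14313 genes tested were lower by that call. All 5 LNCaP arrays lay below all 5 DU145 arrays for 5 members, and for 22% of the genes tested. The 7 members that passed the filter on dim probe sets include PLAU and PLAT, which passed only through DU145, where they are high: 1 LNCaP array of PLAU and 0 of PLAT exceeded the array median, and 2 arrays were needed. Their tests between the lines rest on that filter, and these counts are given without further reading.

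In EOS cells the line difference was -4.95 ± 0.59 for PLAU, -3.35 ± 0.34 for PLAUR, -2.32 ± 0.50 for PLAT, -4.99 ± 0.51 for TIMP1 and -1.21 ± 0.26 for TIMP2. Their adjusted p in limma were 0.000468, 0.000178, 0.00896, 0.000185 and 0.00808. Those 5 members were called lower, beside 15.2% of all genes. SERPINE2 differed by 0.15 ± 0.38 and MMP2 by 0.17 ± 0.47, with adjusted p of 0.804 and 0.825. Without DU145 EOS array 2 the calls of PLAT and TIMP2 were lost, at adjusted p of 0.0655 and 0.0529. PLAU was at -4.05 without DU145 EOS array 1 and at -5.84 without DU145 EOS array 2, and TIMP1 was at -4.44 without LNCaP EOS array 1 and at -5.53 without LNCaP EOS array 2.

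Between the single ribavirin arrays, PLAU, PLAUR and TIMP1 were called lower in LNCaP, at -5.03 ± 0.84, -3.76 ± 0.48 and -4.16 ± 0.72, with adjusted p in limma of 0.00531, 0.00136 and 0.00617 beside 9.03% of all genes called lower. This test takes the spread of a lone array from the other groups. PLAT, at -2.01, and TIMP2, at -1.05, had adjusted p of 0.092 and 0.0846. With the array number as a block TIMP2 was called, at -1.46 and adjusted p = 0.023, and it was called without LNCaP EOS array 1 or 2, at adjusted p of 0.0227 and 0.0231. PLAT was called in the limma fit without an intensity trend, at adjusted p = 0.0452. SERPINE2 and MMP2 were higher in the LNCaP array by 0.70 and 0.67, with adjusted p of 0.422 and 0.556.

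**Figure D3:**
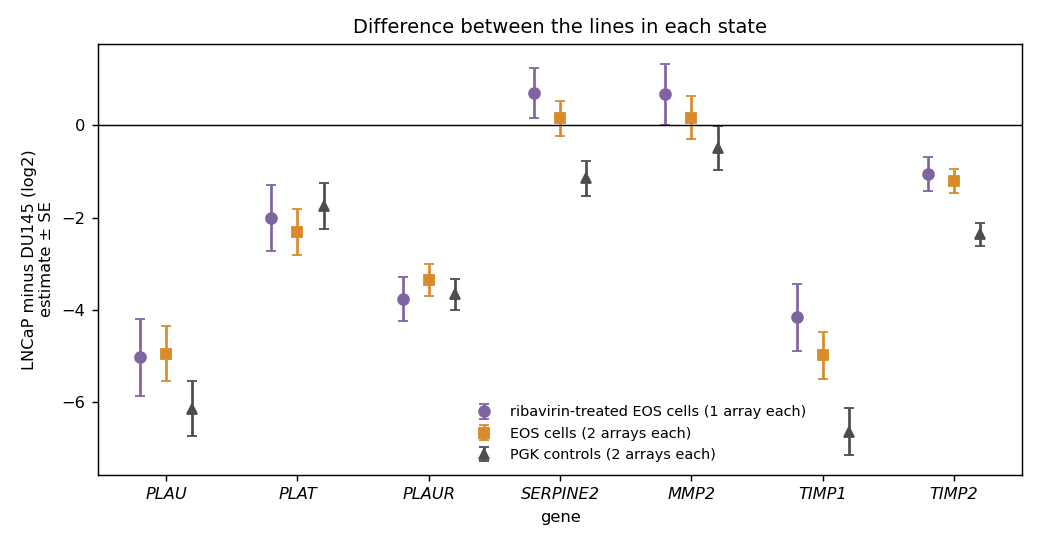
Log2 difference of LNCaP minus DU145 on the vertical axis for the 7 tested members on the horizontal axis, in ribavirin-treated, EOS and PGK cells; points are differences of group means and bars are standard errors from the limma fit. PLAU, PLAUR, PLAT, TIMP1 and TIMP2 lie below 0 in all 3 states, and SERPINE2 lies below 0 only in PGK cells.

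The other genes of the pathway did not all follow the members. In LNCaP PGK cells 15.2% of all genes tested were called higher, beside the 17.9% called lower, and the median over all genes was -0.04. In the plasminogen system list, 2 of 18 tested genes were called higher and 6 lower, with a median of -0.83. The members PLAU, PLAUR, PLAT and SERPINE2 are 4 of those 6, and of the 14 other genes 2 were called higher and 2 lower. The largest differences were those of S100A10 and ANXA2, partners in a cell surface complex that binds plasminogen and PLAT, at -8.01 and -7.73 (limma, adjusted p = 6.12e-05 and 2.12e-07). F12, coagulation factor XII, and PLGRKT, a plasminogen receptor, were higher, at 2.18 and 1.12. Called lower in the list of metalloproteinase inhibitors and inducers were 5 of 10 tested genes, among them the members TIMP1 and TIMP2, and 0 were called higher. Of its 8 other genes 3 were called lower: TFPI2, a matrix-bound inhibitor of plasmin, at -9.17, RECK, a membrane-anchored metalloproteinase inhibitor, at -3.65, and THBS1, thrombospondin-1, at -1.62.

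Among the metalloproteinases, 1 of 11 tested genes was called, MMP16, a membrane-bound enzyme known to activate MMP2, which was higher by 4.36. Of 14 ADAM and ADAMTS proteases 1 was higher, ADAMTS1, at 8.60, and 4 were lower, led by ADAM17, which sheds membrane-bound growth factors and cytokines, at -2.61 and by ADAM19 at -2.54. Of 11 genes in the list labelled membrane serine proteases and inhibitors, not all of them membrane-bound, 8 were higher and 2 were lower, with a median of 3.37. They include TMPRSS2, an androgen-regulated protease, at 7.21, ST14 (matriptase), which can activate pro-urokinase, at 5.70, DPP4 at 4.30 and PRSS23 at -5.60.

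Of 17 cathepsins and cystatins, 3 were higher, among them CSTA, a cysteine protease inhibitor, at 3.85 and CTSF at 3.21, and 5 were lower, among them CTSA at -2.58 and CTSL at -2.08. Of 18 matrix substrates, 2 were higher and 7 lower. COL4A1, LAMB3 and HSPG2, which encode basement membrane proteins, were at -6.23, -4.20 and -3.04, whereas FN1, fibronectin, was at 4.45. Of 14 AP-1 and ETS factors, 3 were higher and 7 lower, with ETS1 at -6.00, ETV5 at -5.08, FOSL1, an AP-1 subunit, at -3.65 and ETV4 at -2.54. The AP-1 subunits did not share a direction. FOS and FOSL2 were also lower, at -2.50 and -2.08, whereas JUN and JUND were higher, at 1.42 and 0.95. The other factor called higher was ATF3, at 1.51. These log2 differences of single genes are LNCaP minus DU145 among PGK controls. Many genes named from the lists passed the filter on dim probe sets only through the line where they are high. They are MMP16, ADAMTS1, TMPRSS2, ST14, DPP4 and CSTA through LNCaP, and TFPI2, ADAM19, COL4A1, LAMB3, FOSL1, ETV4 and ETV5 through DU145. Their tests rest on that filter, and the list counts are given without further reading.

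**Figure D4:**
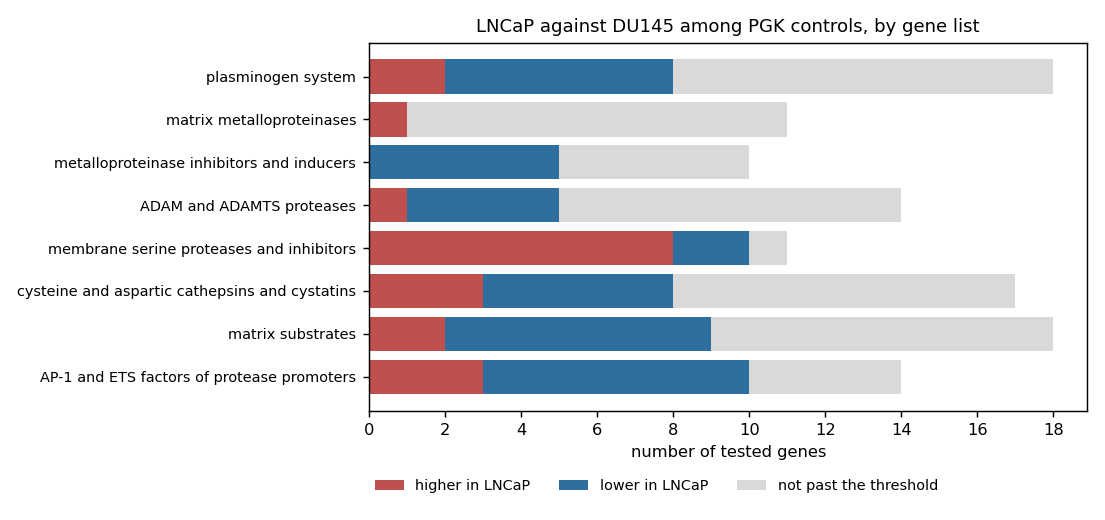
Number of tested genes in each list, on the horizontal axis, that limma called higher or lower in LNCaP than in DU145 PGK cells or did not call. The list labelled membrane serine proteases and inhibitors had 8 of 11 genes called higher. The metalloproteinase inhibitors and inducers had 5 of 10 called lower, members included. Some genes passed the filter on dim probe sets only through the line where they are high.

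EOS selection was compared with the PGK control within each line, the comparison that the series was designed for. No member was called in either line, and 0% of the genes tested were called in LNCaP, in DU145 and in the difference between the lines (limma). At an unadjusted p under 0.05 there were 596 genes in LNCaP, 226 in DU145 and 464 for the difference. With 2 arrays against 2, an exact permutation test of 1 gene cannot go below p = 0.333.

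In LNCaP, TIMP2 was at 11.57 ± 0.56 in EOS cells and 10.58 ± 0.19 in PGK cells (SD, n = 2 each), a difference of 0.99 ± 0.26 with an unadjusted p of 0.00417 and an adjusted p of 0.999 in limma. Both other TIMP2 probe sets were higher in LNCaP EOS cells too, by 0.71 and 0.83. TIMP1 averaged 6.62 ± 0.77 in EOS and 5.08 ± 1.02 in PGK cells, and MMP2 averaged 6.54 ± 0.47 in EOS and 5.33 ± 0.46 in PGK cells (SD, n = 2 each). Their differences were 1.54 ± 0.51 and 1.21 ± 0.47, with unadjusted p of 0.015 and 0.0324 and adjusted p of 0.999 in limma. The other MMP2 probe sets, below the median on all arrays, gave 0.42 and 0.36. The first of them gave 0.94 in number 1 and -0.11 in number 2. TIMP2, TIMP1 and MMP2 are the 3 members with a higher level at an unadjusted p under 0.05, as 3.06% of all genes tested had. MMP2 passed the filter on dim probe sets only through DU145 EOS number 1, LNCaP EOS number 2 and the LNCaP ribavirin array. It was below the median of every PGK array. Its tests of EOS against PGK cells rest on that filter in both lines, and counts that include it are given without further reading.

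The size of these differences depended on the array number. Number 2 gave 1.26 for TIMP2, 2.81 for TIMP1 and 1.87 for MMP2, and number 1 gave 0.73, 0.27 and 0.55. PLAU was higher by 1.22 ± 0.59, at 0.83 and 1.60 in numbers 1 and 2, but its second probe set gave -1.01. SERPINE2 was higher by 0.78 ± 0.38, at 0.69 and 0.87. PLAT had -0.76 ± 0.50 and PLAUR 0.14 ± 0.34, and PLAUR gave -0.32 and 0.61 in numbers 1 and 2. Both LNCaP EOS arrays lay above both PGK arrays for PLAU, SERPINE2, MMP2, TIMP1 and TIMP2, a pattern found in 18% of all genes, and PLAT was the one tested member with both below, as were 10.6% of all genes.

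Marker sums are given for arrays 1 and 2 of each LNCaP group. Mesenchymal markers summed to 9472 and 20180 in EOS and 7061 and 11550 in PGK cells. Within that list FN1 was at 12.67 and 14.05 in EOS and 12.49 and 12.71 in PGK cells, and VIM, vimentin, at 11.54 and 11.66 in EOS and 10.37 and 12.22 in PGK cells. Luminal markers summed to 82650 and 65640 in EOS and 65820 and 52620 in PGK cells, and epithelial markers to 53640 and 53670 in EOS and 50570 and 54830 in PGK cells. Fibroblast markers summed to 658.5 and 843.8 in LNCaP EOS cells and 559.3 and 337.1 in LNCaP PGK cells, with 4 of 7 passing the filter. Endothelial markers summed to 278.1 and 331.7 in EOS and 302.1 and 151.5 in PGK cells, and leukocyte markers to 1942 and 1342 in EOS and 1950 and 805.6 in PGK cells, with 2 of 5 and 3 of 7 passing. Their part in these differences was not tested.

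In DU145 no member was called. TIMP2 differed by -0.16 ± 0.26, TIMP1 by -0.12 ± 0.51, PLAUR by -0.17 ± 0.34, PLAT by -0.19 ± 0.50 and SERPINE2 by -0.52 ± 0.38, each with an adjusted p of 1 in limma. PLAU went in opposite directions in the 2 numbers, at 1.46 and -1.42. MMP2 was higher by 0.55 ± 0.47, and both its EOS arrays were above both PGK arrays, as for 13.2% of all genes. Here too its comparison rests on the filter, which it passed through EOS and ribavirin arrays only. PLAUR and TIMP2 had both EOS arrays below both PGK arrays, as did 16% of all genes. DU145 epithelial markers summed to 15950 and 12340 in EOS and 22670 and 15640 in PGK cells, and all 5 of them had lower means in EOS cells, with 0 called. Mesenchymal markers summed to 28960 and 42640 in EOS and 26940 and 32170 in PGK cells. Within that list FN1 was lower, at 6.81 and 7.50 in EOS and 8.12 and 8.20 in PGK cells. VIM was at 14.72 and 15.30 in EOS and 14.61 and 14.88 in PGK cells, and ZEB1 at 10.83 and 10.98 in EOS and 10.70 and 10.75 in PGK cells. Fibroblast markers summed to 447.3 and 2855 in EOS and 468.5 and 780.2 in PGK cells. Luminal markers summed to 376.3 and 613.9 in EOS and 540.6 and 534.3 in PGK cells, leukocyte markers to 218.9 and 187.1 in EOS and 265.2 and 167.6 in PGK cells, and endothelial markers to 112.2 and 201.3 in EOS and 147.4 and 159 in PGK cells. Their part in these values was not tested.

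**Figure D5:**
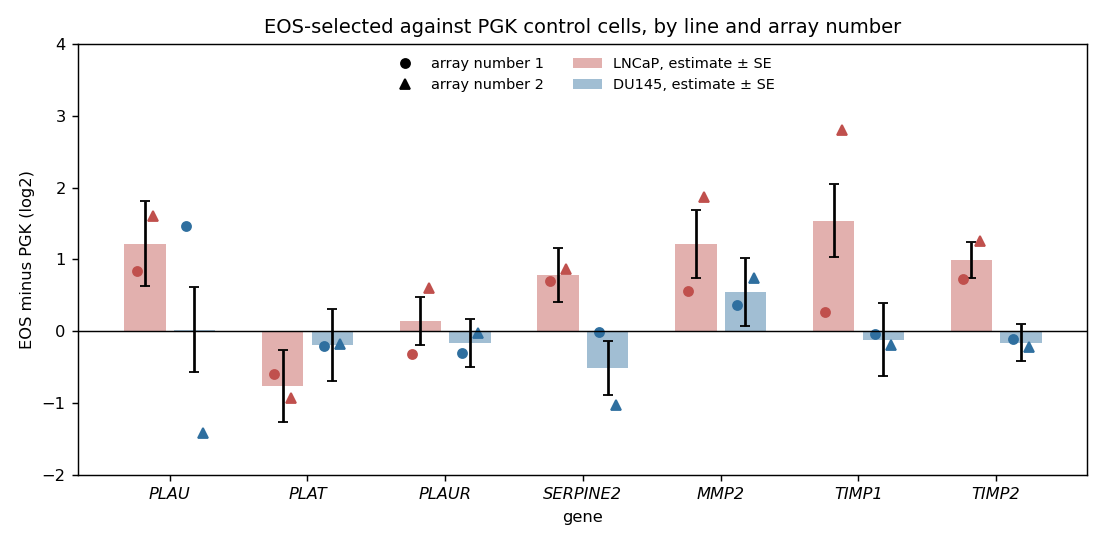
Log2 difference of EOS minus PGK cells on the vertical axis for the 7 tested members on the horizontal axis, in LNCaP and in DU145; bars are differences of means with standard errors from the limma fit, and markers are the values within array numbers 1 and 2. TIMP2, TIMP1, MMP2, SERPINE2 and PLAU lie above 0 for both numbers in LNCaP, and no member passed the adjusted threshold.

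The difference between the lines in the EOS effect was tested as an interaction. The LNCaP effect exceeded the DU145 effect by 1.15 ± 0.36 for TIMP2, 1.30 ± 0.53 for SERPINE2 and 1.66 ± 0.72 for TIMP1. Unadjusted p were 0.0119, 0.0391 and 0.0477 and the adjusted p was 1 in limma, and 2.5% of all genes had a higher LNCaP effect at an unadjusted p under 0.05. The second SERPINE2 probe set, which was below the median on all arrays, had -1.08. In an alternative added after seeing the data, which kept the deposited scale and took the array number as a block, TIMP2 passed the threshold in LNCaP, at 0.99 with adjusted p = 0.0487, and in the interaction, at 1.34 with adjusted p = 0.0495.

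Ribavirin was compared with both EOS arrays of its line, and with EOS number 2, the cells it was applied to. Neither line had a member called, and 0% of all genes were called in LNCaP and in DU145 (limma), with 289 and 250 genes at an unadjusted p under 0.05. PLAU had the largest differences among the tested members, -1.10 ± 0.73 in LNCaP and -1.02 ± 0.73 in DU145, with adjusted p of 0.999 and 1. Against EOS number 2 alone PLAU differed by -1.49 in LNCaP and by -0.12 in DU145, and the second PLAU probe set gave 0.17 in LNCaP and -1.56 in DU145 against both EOS arrays. TIMP2 differed by 0.22 ± 0.31 in LNCaP and 0.06 ± 0.31 in DU145, and TIMP1 by 0.56 ± 0.62 in LNCaP and -0.26 ± 0.62 in DU145. The ribavirin groups hold 1 array each, so their own spread was not measured.

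Across the 10 arrays, after the mean of each line was subtracted, MMP2 and TIMP1 had the highest correlation of any member pair, with Pearson r = 0.885. TIMP1 and TIMP2 had r = 0.789, MMP2 and TIMP2 r = 0.746, and PLAU and SERPINE2 r = 0.732. LNCaP arrays weigh more in the first 3 of these, since only line means were removed. Their range was 2.83 against 0.52 in DU145 for TIMP1, 1.52 against 0.28 for TIMP2 and 1.94 against 0.98 for MMP2. In DU145, PGK number 2 had the highest TIMP2, 13.03, and the lowest MMP2, 5.51. DU145 EOS number 1 had the lowest TIMP2, 12.75, and the highest MMP2, 6.50. Correlations within 1 line were not computed. PLAT ran against MMP2, TIMP1 and PLAU, at -0.502, -0.501 and -0.497. Over all genes, TIMP1 was most like TPBG and ACOX2, at 0.991 and 0.982. TIMP2 was most like RHOG and PLAG1, at 0.972 and 0.962, and MMP2 was most like MYEF2 and ANKRA2, at 0.979 and 0.951. For SERPINE2 the closest were ITIH4 and DKFZP434A062, at 0.949 and 0.925, for PLAUR PPIP5K1 and HRH3, at 0.945 and 0.936, for PLAT RIMOC1 and RBL1, at 0.943 and 0.936, and for PLAU SELENOI and RPL39L, at 0.894 and 0.874. These values describe arrays that share line, selection state and array number, and each is the highest of 14313 genes.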

How the data were processed

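RNA of 10 samples was measured on 1 Affymetrix array each. The deposited values were intensities per probe set on a linear scale. Per the submitters' processing notes, MAS5 and affy were used. Versions, background correction and the target of scaling are not given in the sources used here. Because the deposited scales differed between arrays, each array was scaled to a 2% trimmed mean of 500, and log2(intensity + 16) was taken. Of 54675 probe sets, 62 were array controls; 41091 had 1 gene symbol, 1801 several and 11721 none. Of the first, 41037 were matched by Entrez identifier, and 0 symbols changed. Genes with a probe set above the array median in at least 2 of 10 arrays were tested, 14313 in all.

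Group means were compared in limma 3.58.1 (R 4.3.3) in a model of 6 groups, with 4 residual degrees of freedom, an intensity trend and Benjamini-Hochberg adjustment over all genes at 0.05. The script was tested on simulated data. The tests are two-sided, and each value after ± without SD is a standard error. The number of arrays limits the precision. Arrays of the same number deviated from their group means together, with r = 0.484 in LNCaP and r = 0.123 in DU145 across genes. The fit was repeated with the number of each line as a block. The numbers are those in the labels, which do not say what they share. Other alternatives were the pseudocount, the scaling, the filter, the choice of probe set, the trend and leaving out each array.

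The members and the gene lists were chosen with earlier results of these data known, so their counts are descriptions. Outside the members, up to 4 genes of each list with the largest called difference between the lines among PGK controls were named, and for each member the 2 genes of highest correlation. In the list of AP-1 and ETS factors the other called AP-1 subunits and ATF3 were named too. Promoter sequences are from RefSeq, GRCh38.p14.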

Additional observations from a re-analysis of the deposited data

Results flagged for a closer look

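For SERPINE2, TIMP1 and TIMP2, both LNCaP EOS arrays were above the PGK array of the same number, while both DU145 EOS arrays were below theirs. The effect in LNCaP minus the effect in DU145 was 1.30 for SERPINE2, 1.66 for TIMP1 and 1.15 for TIMP2. Tested as an interaction in limma, the adjusted p was 1 for each. The DU145 values that set the opposite direction were small for TIMP1, at -0.04 and -0.20 in numbers 1 and 2, and for TIMP2, at -0.10 and -0.22, and for SERPINE2 they were -0.01 and -1.02.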

How the results depend on the processing

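Over 56 member differences, 1052 values under the alternatives were counted as unchanged. In refits 26 lost the call, 6 gained it and 31 changed sign, and 18 within-number values moved by more than the spread of a group. An unchanged refit kept direction and call. A within-number value has no call and counted as unchanged if it moved by less than that spread, even where its sign changed. PLAUR for EOS against PGK in LNCaP was such a case, at -0.32 in number 1 and 0.14 in the fit. Without scaling, groups mix both deposited scales: the called genes fell to 58 among PGK controls and 36 among EOS cells, against 4733 and 4355, with 0 members called in each, and the median of all genes was -0.18 for the line difference among PGK controls and 0.23 for the interaction. Keeping the deposited scale with the number as a block was an alternative chosen after seeing the data. It gave 6 and 5 members for the line differences among PGK controls and EOS cells. Its share of all genes called there is not given here, so these member counts are given without further reading. For EOS against PGK it gave 50 genes and 1 member in LNCaP, 34 genes in DU145 and 3 genes for the mean of both lines. The interaction had 82 genes with 1 member. In the scaled fit without block these EOS and interaction counts were 0. Leaving out single arrays gave 2497 to 5061 genes among PGK controls, 2676 to 4558 genes and 3 to 5 members among EOS cells, and 0 to 4 genes for EOS in LNCaP. The replicate block on the scaled values called 5162 and 4920 genes for the line differences and changed no other member's call than that of TIMP2 between the ribavirin arrays.

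The differences that changed sign in a refit were none of them called. With the replicate block, scaled and then unscaled, SERPINE2 between the lines in EOS cells was -0.40 and -0.34, and MMP2 -0.053 and -0.17. The block on scaled values also gave -0.39 for SERPINE2 between the ribavirin arrays, and, for ribavirin against EOS, 0.12 for MMP2 and -0.0029 for TIMP2 in DU145 and -0.17 for SERPINE2 and -0.048 for TIMP2 in LNCaP. Unscaled, EOS against PGK in DU145 was -0.14 for PLAU in both fits. The mean of all probe sets gave -0.00565 for the PLAU interaction and -0.097 for TIMP2 under ribavirin in DU145, and quantile normalization 0.035 for PLAUR under ribavirin in LNCaP. Leaving out single arrays, the values that crossed 0 had these ranges. Between the lines in EOS cells they ran from -0.39 to 0.69 for SERPINE2 and -0.16 to 0.50 for MMP2. For EOS against PGK in DU145 they ran from -0.87 to 0.92 for PLAU, -0.45 to 0.063 for PLAT, -1.06 to 0.025 for SERPINE2 and -0.35 to 0.11 for TIMP1. For EOS against PGK in LNCaP they ran from -0.35 to 0.64 for PLAUR. For the interaction they ran from -0.19 to 0.80 for PLAUR. For ribavirin in DU145 they ran from -1.01 to 0.076 for SERPINE2 and -0.22 to 0.032 for MMP2. For ribavirin in LNCaP they ran from -0.57 to 0.42 for PLAUR, -0.21 to 0.38 for SERPINE2 and -0.18 to 0.61 for TIMP2. The cause of these changes was not tested.

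The SERPINE2 line call among PGK controls was also lost with a pseudocount of 1, quantile normalization, no filter and no intensity trend, at adjusted p of 0.0504, 0.0739, 0.0612 and 0.0756, and that of TIMP2 among EOS cells with the mean of its probe sets, at 0.0636. Between the ribavirin arrays PLAT was gained without the intensity trend, at 0.0452, and TIMP2 without LNCaP EOS array 1 or 2, at 0.0227 and 0.0231. Dim values limit PLAU, PLAT and TIMP1 in LNCaP, and MMP1 and MMP13 in both lines, where signal is near the floor.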
